A study of Mus musculus with 6 samples.

Results

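The genes described here are the mouse Cyp2 family of cytochrome P450 enzymes without the Cyp2b subfamily. They were chosen by name and transcript type, as rows of the deposited table that list a protein-coding transcript and are called Cyp2, a subfamily letter other than b, and a number. This gave 40 of the 30889 genes of the table, of which 18 list protein-coding transcripts alone. By subfamily they were 4 Cyp2a, 15 Cyp2c, 8 Cyp2d and 6 Cyp2j genes, and 1 gene each of Cyp2e, Cyp2f, Cyp2g, Cyp2r, Cyp2s, Cyp2t and Cyp2u. The extract group is liver from 3 libraries of mice dosed by mouth for 14 days with a water extract of Emilia sonchifolia, a flowering plant. The control group is liver from 3 libraries of mice given phosphate buffered saline over the same 14 days. Strain, sex, age and dose are not given in the sources used here.

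Cytochrome P450 enzymes are heme proteins of the endoplasmic reticulum that insert an oxygen atom into their substrates, with electrons passed on by the reductase Por. The Cyp2 family is the largest in mouse and took shape by repeated gene duplication, so that most of its liver genes sit in clusters of close copies. Its members oxidise drugs, plant compounds, steroids, fatty acids and bile acids, and many differ between female and male liver or between the centre and the edge of the liver lobule.

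The extract libraries held 52941399 to 56603387 estimated counts and the control libraries 51219533 to 61432016. Across the tested genes, Pearson correlations of log2(FPKM + 0.5) were 0.992 within extract, 0.982 to 0.990 within control and 0.974 to 0.978 between the groups. Control 3 had the lowest control value for 21 of the 31 members that averaged at least 1 FPKM in a group. Markers of pancreas summed to 44.0 to 48.2 FPKM in extract libraries and to 0.231 to 41.8 FPKM in control libraries, and those of muscle to 86.0 to 132 and 0.457 to 101 FPKM. Control 3 held the high pancreas value and the low muscle value. All 4 erythroid, 5 of 5 Kupffer cell, 4 of 5 leukocyte and 3 of 4 endothelial markers were called lower in the extract group. Over all genes tested, 12.8% were called lower. Kupffer sums were 135 to 145 FPKM in extract libraries, against 222 to 227 FPKM in control libraries. Of 5 hepatocyte markers, 2 rose and 2 fell. The part of these shifts in the results below was not tested, and in bulk liver fewer cells of a type cannot be told apart from less RNA per cell.

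The extract group moved the family both ways. Of the 40 genes, 38 passed the filter on low counts, and edgeR called 12 of them higher and 10 lower in extract. Called genes made up 57.9% of the members, beside 26.9% of all genes tested. Higher calls were 31.6% of the members, beside 14.2% of all genes tested, and lower calls 26.3%, beside 12.8%. The FPKM ranges of the groups did not overlap for 25 of all 40 members, tested or not, with 13 higher and 12 lower in extract. Over all genes tested, they did not overlap for 44.6%, with 17.7% higher and 26.9% lower. The median log2 fold change was 0.12 over the members and -0.02 over all genes tested. With limma on filtered FPKM, 9 members were called higher and 11 lower, and higher calls were 40.1% of all calls over all genes, beside 52.6% with edgeR. Of the calls, 2 reached a size of 1 on the log2 scale, and both were falls in the Cyp2c subfamily, of Cyp2c69 and Cyp2c40.

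**Figure D1:**
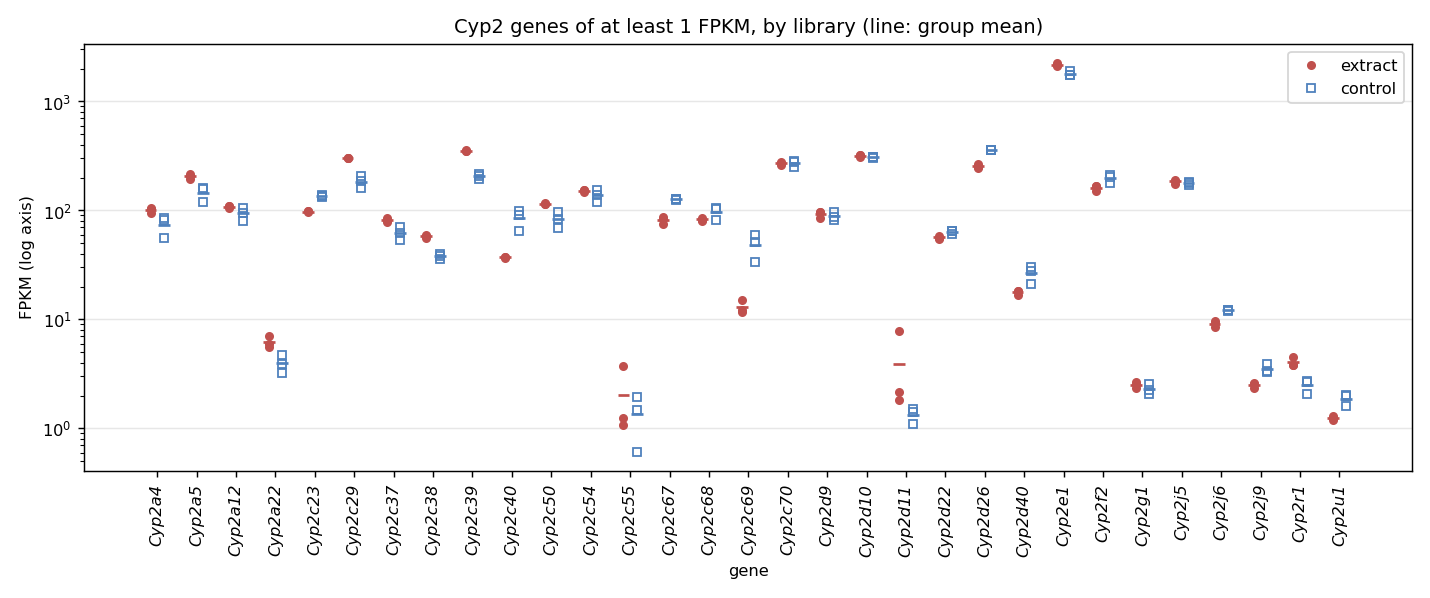
FPKM of the 31 Cyp2 genes whose mean reached 1 FPKM in either group, on a log axis, with a point for each extract library (filled circles, left) and control library (open squares, right) and a line at each group mean. Cyp2e1 stands above all other genes in every library, at 1749 FPKM or more, and the gap between group means is widest for Cyp2c69, followed by Cyp2d11, where extract 2 stands apart at 7.83 FPKM, and Cyp2c40.

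**Figure D2:**
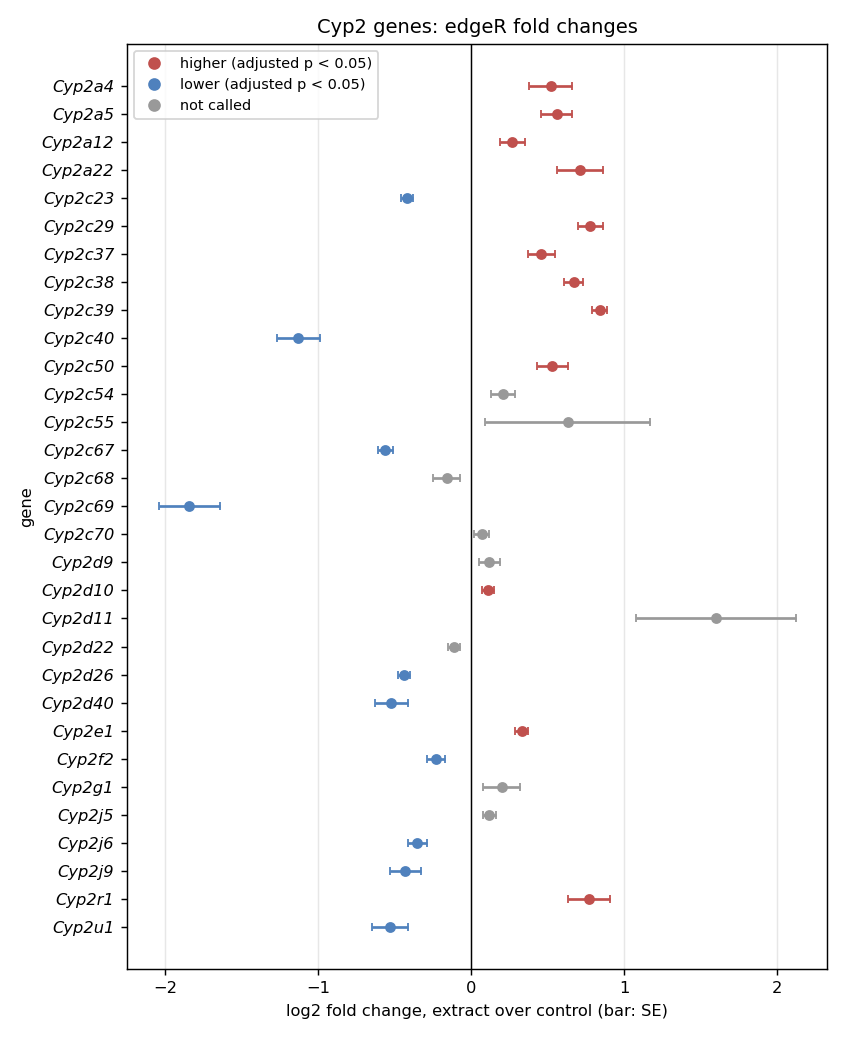
Log2 fold change of extract over control for the same 31 genes from edgeR, with bars of 1 SE, coloured by the call at an adjusted p of 0.05. All 4 Cyp2a genes lie above 0, and Cyp2c genes lie on both sides.

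Cyp2e1, which oxidises ethanol, acetone and paracetamol, was the most abundant member. Its levels were 2154, 2235 and 2108 FPKM in extract libraries, against 1891, 1750 and 1749 FPKM in control libraries. Every extract library stood above every control library, and the gene rose by a log2 fold change of 0.33 ± 0.04, where ± on log2 values is the standard error here and below (edgeR adjusted p = 0.00123; chromosome 7, 140763739 to 140774987, GRCm38). It held 40.3% to 40.8% of the summed FPKM of all members in extract libraries and 36.2% to 38.3% in control libraries. The members together summed to 5349 ± 126 FPKM in extract and 4836 ± 267 FPKM in control (SD, n = 3 each), a description without a test.

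**Figure D3:**
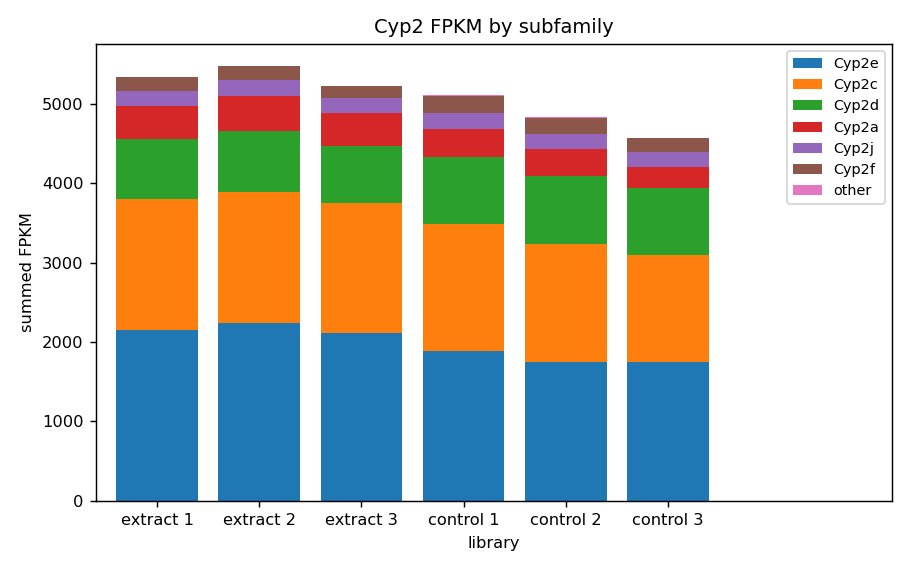
Summed FPKM of the Cyp2 genes in each library, stacked by subfamily, with the extract libraries on the left and the control libraries on the right. Cyp2e and Cyp2c make up most of each bar, and Cyp2d takes a smaller share in the extract libraries than in the control libraries.

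All 4 Cyp2a genes rose, and their summed FPKM was 423 ± 13.0 in extract and 318 ± 51.6 in control (SD, n = 3 each, no test). Cyp2a5, the coumarin hydroxylase, stood at 208, 218 and 194 FPKM in extract libraries, against 162, 157 and 119 FPKM in control libraries. Its groups did not overlap, and the log2 fold change was 0.56 ± 0.10 (edgeR adjusted p = 0.00529). Cyp2a4, a steroid 15-alpha hydroxylase higher in female than in male mice, stood at 94.8, 104 and 106 FPKM in extract libraries, against 84.5, 81.03 and 55.8 FPKM in control libraries. The lowest control library was control 3, and the log2 fold change was 0.52 ± 0.14 (edgeR adjusted p = 0.0251). That call was lost without control 2 (0.0552), extract 2 (0.0844) or extract 3 (0.0798), and with limma on filtered FPKM at each pseudocount (0.0529 to 0.0548) or on unfiltered FPKM (0.135). An antisense gene overlaps its span, and no use of strand is stated.

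The coding sequences of Cyp2a4 and Cyp2a5 are 98.4% identical over 1482 bases, and 11.2% of the 100-base windows of Cyp2a4 transcripts also occur in other genes, so counting could move reads between them. The ratio of Cyp2a5 to Cyp2a4 FPKM was 2.04 ± 0.186 in extract and 1.998 ± 0.125 in control. It rests on reads that counting could have moved between the pair, so it cannot show whether their transcripts kept the same proportion. Summed with the pseudogene Cyp2a21-ps, with which they share windows, the pair had a mean of 310 FPKM in extract and 221 FPKM in control. Cyp2a22 was at 5.90, 5.58 and 6.98 FPKM in extract libraries and 4.75, 3.88 and 3.20 FPKM in control libraries, a log2 fold change of 0.71 ± 0.15 (edgeR adjusted p = 0.00963). Its coding sequence is 97.0% identical to that of the more abundant Cyp2a12, and 3.98% of its 100-base windows also occur there. The pseudogene Cyp2a21-ps overlaps its span. The part of shared reads in this rise was not tested. Cyp2a12, which hydroxylates steroids and secondary bile acids, was at 106, 110 and 109 FPKM in extract libraries and 105, 95.5 and 80.7 FPKM in control libraries. The lowest extract value lay just above the highest control value, and its rise of 0.27 ± 0.08 on the log2 scale (edgeR adjusted p = 0.0461) was lost in 11 of 17 alternatives.

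The Cyp2c subfamily, whose enzymes oxidise arachidonic acid, retinoids and many drugs, split into genes that rose and genes that fell. Of 15 members, 14 were tested, 5 rose, 4 fell and 5 were not called. Their summed FPKM was 1652 ± 4.05 in extract and 1476 ± 126 in control (SD, n = 3 each, no test). All but Cyp2c23 lie in a single cluster of 14 genes on chromosome 19, from 39007019 to 40187333 on GRCm38, with 7 on each strand. In the order along the chromosome, the run of Cyp2c29, Cyp2c38 and Cyp2c39 rose. The next 4 genes, Cyp2c67, Cyp2c68, Cyp2c40 and Cyp2c69, had negative fold changes, of which all but that of Cyp2c68 were called. Of Cyp2c37, Cyp2c54 and Cyp2c50, which come after them, Cyp2c37 and Cyp2c50 rose.

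**Figure D4:**
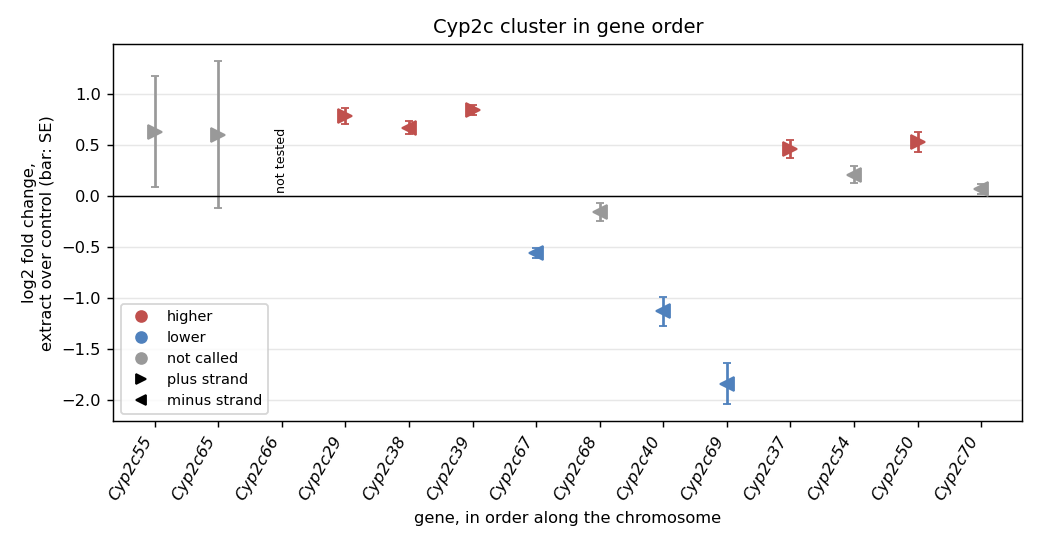
Log2 fold change of extract over control, with bars of 1 SE, for 13 genes of the Cyp2c cluster of 14, in their order along chromosome 19, with the place of Cyp2c66, which was not tested, left blank. Triangles point right for the plus strand and left for the minus strand, and the 4 negative values stand side by side between runs of positive ones.

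The runs are also groups of close copies. Coding sequences were 96.5% to 98.1% identical among Cyp2c40, Cyp2c67, Cyp2c68 and Cyp2c69, 89.1% to 94.2% among Cyp2c29, Cyp2c38 and Cyp2c39, and 95.1% to 96.1% among Cyp2c37, Cyp2c50 and Cyp2c54. Between the first and the second of these groups identity was 76.4% to 78.1%. Members of the first group share 19.8% to 35.4% of their 100-base windows with other genes, so their separate values are uncertain, while Cyp2c38 and Cyp2c39 share none. Summed over the 4 genes of the first group, the FPKM was 215 ± 5.01 in extract and 356 ± 44.96 in control (SD, n = 3 each). Their summed counts, which do not depend on how reads were divided among the 4, were 465 ± 4.21 CPM in extract and 771 ± 91.6 CPM in control (scaled to the library total). The sum of Cyp2c29, Cyp2c38 and Cyp2c39 was 715 ± 3.17 FPKM in extract and 428 ± 28.6 FPKM in control. That trio made up 43.0% to 43.6% of Cyp2c FPKM in extract libraries, against 27.9% to 30.3% in control libraries, and the first group made up 12.7% to 13.2%, against 22.8% to 24.8%. These groups were formed after the values were seen and were not tested as groups.

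**Figure D5:**
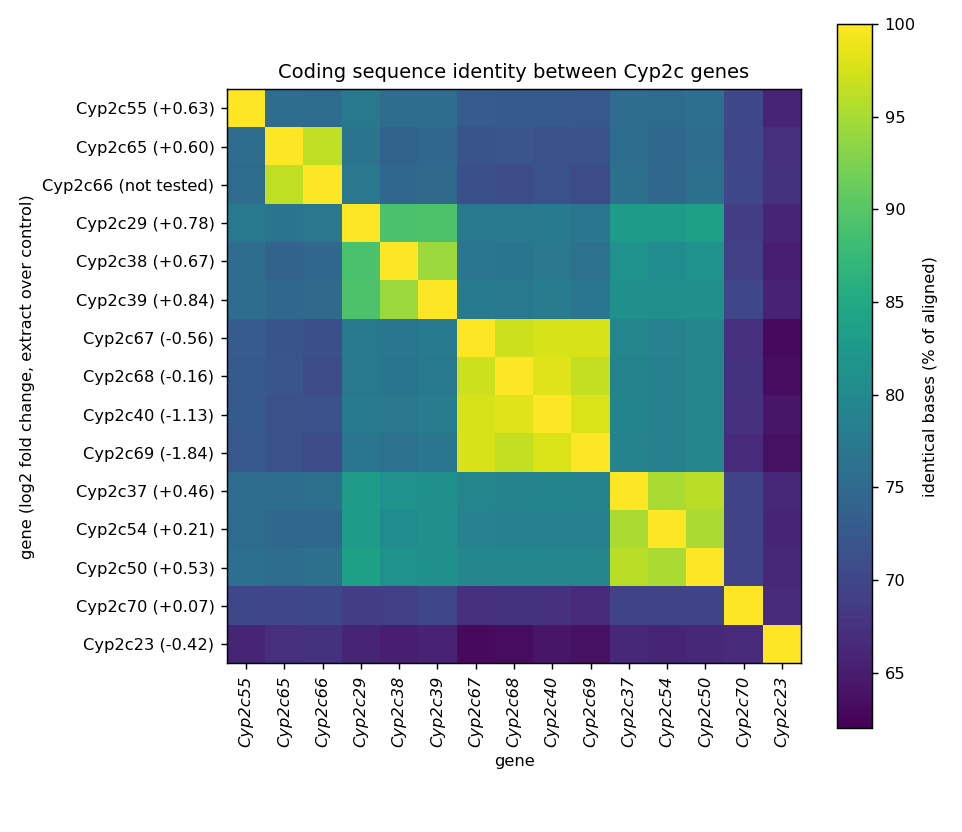
Identity of coding sequences between Cyp2c genes, as the percent of aligned bases, in chromosome order with Cyp2c23 last, and with the log2 fold change of extract over control beside each gene. The block of 96.5% to 98.1% identity holds the 4 genes of the cluster with negative fold changes.

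The letters just before the annotated starts differ between the first and the second of these groups, and are shown for that reason. The group of Cyp2c37, Cyp2c50 and Cyp2c54 is mixed. RefSeq promoter windows (GRCm38.p6) were searched on both strands, over 250 bases before the start, for CAAAGTCCA, a sequence that the liver factor HNF4A is known to bind. It was found in Cyp2c40, Cyp2c67, Cyp2c68 and Cyp2c69, and also in Cyp2c65 and Cyp2c70, neither of which was called. It was in 0.384% of all 32851 windows of that length. Cyp2c40, Cyp2c67, Cyp2c68 and Cyp2c69 are close copies, so their shared letters cannot be counted as separate finds. For that reason this rate and the one below describe the windows and test no enrichment. Cyp2c29, Cyp2c39 and Cyp2c37 hold the letters CAAAGTCTA, present in 0.225% of all windows, which differ by C8T, counted from 1 at the 5′ end of CAAAGTCCA. Cyp2c38 differs there by C7T and C8T. Cyp2c50, which rose, holds neither run of letters, and Cyp2c54 was not matched to a window. Stretches were placed by their mismatches to a sequence that Cyp2c40, Cyp2c67 and Cyp2c69 match in full. Substitutions are thus counted from the letters of genes that fell. The best and second-best stretches of Cyp2c50 tied at 5 mismatches, so no substitution is given for that gene. The stretches below are on the strand of each gene, with these 9 bases in capitals, and lie at chr19:39286931-39287030 for Cyp2c29 (plus strand), chr19:39463132-39463231 for Cyp2c38 (minus), chr19:39510691-39510790 for Cyp2c39 (plus), chr19:39992263-39992362 for Cyp2c37 (plus), chr19:39649113-39649212 for Cyp2c67 (minus), chr19:39741124-39741223 for Cyp2c68 (minus), chr19:39812815-39812904 for Cyp2c40 (minus) and chr19:39886790-39886889 for Cyp2c69 (minus).
Cyp2c29: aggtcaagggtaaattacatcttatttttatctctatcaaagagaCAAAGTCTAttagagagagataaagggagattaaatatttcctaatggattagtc
Cyp2c38: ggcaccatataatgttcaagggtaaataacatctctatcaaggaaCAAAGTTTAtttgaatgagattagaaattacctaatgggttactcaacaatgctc
Cyp2c39: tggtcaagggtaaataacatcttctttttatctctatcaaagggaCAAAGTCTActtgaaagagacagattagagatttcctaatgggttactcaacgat
Cyp2c37: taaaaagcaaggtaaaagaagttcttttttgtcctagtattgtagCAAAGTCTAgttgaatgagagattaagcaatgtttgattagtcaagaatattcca
Cyp2c67: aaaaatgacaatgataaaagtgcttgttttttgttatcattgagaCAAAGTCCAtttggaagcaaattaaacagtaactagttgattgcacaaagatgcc
Cyp2c68: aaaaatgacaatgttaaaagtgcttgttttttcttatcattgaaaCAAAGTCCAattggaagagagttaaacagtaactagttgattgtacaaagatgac
Cyp2c40: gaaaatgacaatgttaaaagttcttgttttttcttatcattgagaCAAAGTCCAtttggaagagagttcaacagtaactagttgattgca
Cyp2c69: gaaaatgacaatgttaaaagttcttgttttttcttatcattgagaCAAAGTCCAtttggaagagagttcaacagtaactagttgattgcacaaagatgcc
The RefSeq start of Cyp2c29 lies 17680 bases inside the gene span of the table, which begins upstream in the pseudogene Cyp2c53-ps. Among the other genes printed, the RefSeq start lies within 47 bases of the start in the table. A match of letters is a description of the sequence, not of binding.

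In the rising run, Cyp2c39, which oxidises retinoic acid, had the smallest adjusted p of the family. It stood at 354, 352 and 357 FPKM in extract libraries, against 217, 194 and 208 FPKM in control libraries, with no overlap and a log2 fold change of 0.84 ± 0.05 (edgeR adjusted p = 3.18e-05; 39510862 to 39568529). Cyp2c29, an epoxygenase of arachidonic acid inducible through the receptor CAR, stood at 301, 305 and 302 FPKM in extract libraries, against 206, 185 and 160 FPKM in control libraries. All extract values lay within a few units of each other and above the controls, and the log2 fold change was 0.78 ± 0.08 (edgeR adjusted p = 0.000309; 39269405 to 39330699). Cyp2c38 stood at 58.8, 55.6 and 59.7 FPKM in extract libraries, against 38.3, 35.9 and 39.8 FPKM in control libraries. Here control 3 was the highest control, and the log2 fold change was 0.67 ± 0.06 (edgeR adjusted p = 0.000160; 39389556 to 39463075). These 3 calls held in all 17 alternatives.

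The falls were led by Cyp2c69 and Cyp2c40, both known as higher in female than in male mouse liver. Cyp2c69 stood at 11.8, 12.1 and 15.005 FPKM in extract libraries, against 60.1, 51.9 and 33.3 FPKM in control libraries. It fell by 1.84 ± 0.20 on the log2 scale (edgeR adjusted p = 0.000501; 39842814 to 39886799). Cyp2c40, which hydroxylates arachidonic acid, stood at 37.7, 37.4 and 36.8 FPKM in extract libraries, against 99.7, 91.2 and 64.4 FPKM in control libraries. The extract values were close together and below the lowest control, control 3, and the gene fell by 1.13 ± 0.14 (edgeR adjusted p = 0.000753; 39767071 to 39812814). Cyp2a4, the third member of the list of genes higher in female liver, rose, as given above.

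Cyp2c67 stood at 86.5, 83.6 and 75.8 FPKM in extract libraries, against 128, 124 and 127 FPKM in control libraries, with no overlap. It fell by 0.56 ± 0.05 on the log2 scale (edgeR adjusted p = 0.000201). Cyp2c68 stood at 80.5, 86.0 and 81.7 FPKM in extract libraries, against 106, 103 and 81.3 FPKM in control libraries. Control 3 lay within the extract range, and the value of -0.16 ± 0.09 was not called (edgeR adjusted p = 0.219), but was called without control 3 (0.00384). The ratio of Cyp2c69 to Cyp2c68 FPKM was 0.157 ± 0.0234 in extract and 0.495 ± 0.0799 in control. These near-identical genes share windows, and the part of shared reads in this change of ratio was not tested.

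Cyp2c50 and Cyp2c37, which oxidise arachidonic acid, rose by log2 fold changes of 0.53 ± 0.10 and 0.46 ± 0.09 (edgeR adjusted p = 0.00631 and 0.00702). Cyp2c50 stood at 114, 115 and 118 FPKM in extract libraries, against 96.6, 83.9 and 69.7 FPKM in control libraries. Cyp2c37 stood at 78.2, 81.8 and 84.8 FPKM in extract libraries, against 69.9, 62.4 and 53.5 FPKM in control libraries. In both genes the controls spread more widely than the extract libraries, with control 3 lowest. Cyp2c54, at 147, 155 and 153 FPKM in extract libraries and 154, 138 and 121 FPKM in control libraries, overlapped and was not called (edgeR adjusted p = 0.0911), though it was with DESeq2 (0.0103) or without control 1 (0.0103).

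Cyp2c23, an arachidonic acid epoxygenase, lies apart from the cluster (chromosome 19, 44005022 to 44029208) and shares no 100-base window with another gene. It stood at 97.8, 96.6 and 98.6 FPKM in extract libraries, against 137, 140 and 133 FPKM in control libraries. The groups were far apart relative to their spread, and it fell by 0.42 ± 0.04 on the log2 scale (edgeR adjusted p = 0.000162). Cyp2c70, the enzyme that makes muricholic acids in mouse, was among the most abundant members and was not called, at 280, 274 and 264 FPKM in extract libraries and 284, 279 and 252 FPKM in control libraries (log2 fold change 0.07 ± 0.05, edgeR adjusted p = 0.349).

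Cyp2c55, which CAR induces and which is also active in the gut, was at 3.70, 1.08 and 1.24 FPKM in extract libraries and 0.612, 1.48 and 1.94 FPKM in control libraries. The groups overlapped, extract 1 alone was high, and the value of 0.63 ± 0.54 was not called (edgeR adjusted p = 0.435). The gut marker Krt20 was at 2.54, 0.770 and 1.303 FPKM in extract libraries and 1.54, 3.92 and 3.92 FPKM in control libraries. Cdx1, Cdx2, Krt20 and Vil1, each an epithelial gene of the gut, were highest among the extract libraries in extract 1, and none was called. The fifth gut marker, Fabp2, was at 31.96, 31.8 and 34.3 FPKM in extract libraries, against 54.3, 52.4 and 53.0 FPKM in control libraries, and was called lower. The sum of the 5, at 34.0 to 37.1 FPKM in extract and 57.4 to 60.7 FPKM in control, is mostly Fabp2. Their part in the Cyp2c55 values was not tested. Of 3 members listed here as inducible through CAR, a list that need not be complete, Cyp2c29 and Cyp2c37 rose and Cyp2c55 was not called. Cyp2c65 and Cyp2c66 stayed under 1 FPKM in every library.

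The Cyp2d subfamily, which metabolises basic drugs and steroids, summed to 743 ± 30.7 FPKM in extract and 847 ± 3.45 FPKM in control (SD, n = 3 each, no test). Of 8 members, 1 was called higher, 2 lower and 5 were not called. Cyp2d26 stood at 252, 266 and 244 FPKM in extract libraries, against 360, 361 and 359 FPKM in control libraries. It was the highest Cyp2d gene of the control group, its groups were far apart, and it fell by 0.44 ± 0.04 on the log2 scale (edgeR adjusted p = 0.000130; chromosome 15, 82790101 to 82794294). Cyp2d40 stood at 18.1, 16.7 and 18.2 FPKM in extract libraries, against 28.1, 30.0 and 21.3 FPKM in control libraries. The controls were uneven but all above the extract libraries, and it fell by 0.52 ± 0.11 (edgeR adjusted p = 0.0122). The call was lost without extract 2 (0.0614) or control 2 (0.0524).

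Cyp2d10 had the highest mean of the Cyp2d genes over all libraries, at 321, 326 and 306 FPKM in extract libraries and 302, 310 and 308 FPKM in control libraries. The groups overlapped, and its higher call of 0.11 ± 0.04 on the log2 scale (edgeR adjusted p = 0.0471) was lost in 13 of 17 alternatives. Cyp2d9, a steroid 16-alpha hydroxylase higher in male than in female mice, was at 95.9, 96.7 and 84.7 FPKM in extract libraries and 87.6, 82.6 and 96.0 FPKM in control libraries. It overlapped and was not called (edgeR adjusted p = 0.260). Several pseudogenes lie within its span. Cyp2d22 was at 55.9, 58.6 and 55.02 FPKM in extract libraries and 64.4, 64.9 and 61.2 FPKM in control libraries, and did not pass the test despite the lack of overlap (edgeR adjusted p = 0.0729), while 7 of 17 alternatives called it lower. Cyp2d11 was at 2.14, 7.83 and 1.83 FPKM in extract libraries and 1.10, 1.51 and 1.41 FPKM in control libraries, so the groups did not overlap and extract 2 stood far above the rest. Its log2 fold change of 1.60 ± 0.52 was not called (edgeR adjusted p = 0.0543) and was 0.64 without extract 2 (0.0825). It was called higher in 3 of 17 alternatives, with adjusted p of 0.0474 at 50 counts in 3 libraries, 0.0490 with counts divided by 4 and 0.0318 without extract 3. Its coding sequence is 94.7% identical to that of Cyp2d10. Cyp2d12 and Cyp2d34 stayed under 1 FPKM in every library.

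In the Cyp2j subfamily, which makes epoxides and hydroxylated products of fatty acids, the main liver gene was not called and 2 of the minor ones fell. Cyp2j5, an arachidonic acid epoxygenase, was at 188, 191 and 175 FPKM in extract libraries and 184, 178 and 171 FPKM in control libraries. The groups overlapped (edgeR adjusted p = 0.0799), but the gene was called higher with DESeq2 (0.0321) or without control 1 (0.0436). Cyp2j6 was at 9.63, 9.28 and 8.53 FPKM in extract libraries, against 12.3, 11.9 and 12.2 FPKM in control libraries, a fall by 0.35 ± 0.06 on the log2 scale (edgeR adjusted p = 0.00303). Cyp2j9 was at 2.59, 2.35 and 2.57 FPKM in extract libraries, against 3.27, 3.39 and 3.94 FPKM in control libraries, a fall by 0.43 ± 0.10 (edgeR adjusted p = 0.0153). The Cyp2j9 call was lost without extract 1 (0.0528) or extract 2 (0.0704). In neither gene did the groups overlap, and no Cyp2j gene shares a 100-base window with another gene. Cyp2j8, Cyp2j11 and Cyp2j13 stayed under 1 FPKM, and edgeR called none of them. Cyp2j8 was listed at 0, 0.0631 and 0 FPKM in extract libraries and 0.201, 0.157 and 0.209 FPKM in control libraries, so its groups did not overlap (edgeR adjusted p = 0.0813), and 2 of 12 alternatives called it lower.

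Cyp2f2, which activates naphthalene and in liver is highest around the portal vein, was at 166, 168 and 151 FPKM in extract libraries, against 211, 204 and 178 FPKM in control libraries. The groups did not overlap, and it fell by 0.23 ± 0.06 on the log2 scale (edgeR adjusted p = 0.0329). That call was lost in 7 of 17 alternatives, among them the fits without each library except control 3 (0.0796 to 0.115). An antisense gene overlaps its span too. Members known to be highest around the central vein moved the other way. Of Cyp2e1, Cyp2a5, Cyp2c29, Cyp2c37, Cyp2c50 and Cyp2c54, 5 of 6 rose and Cyp2c54 was not called. Of 8 pericentral markers outside the family, 5 were called higher and 1 lower. Of 6 periportal markers, 0 were called higher and 5 lower. Over all genes tested, 14.2% were called higher and 12.8% lower. The pericentral marker Oat fell by 0.51 on the log2 scale (edgeR adjusted p = 0.000461). The pericentral markers Slc1a2 and Cyp1a2 and the periportal marker Arg1 were not called. The pericentral markers summed to 493 to 511 FPKM in extract libraries and 413 to 494 FPKM in control libraries, so these ranges overlapped. The periportal markers summed to 1652 to 1742 FPKM in extract libraries and 2291 to 2341 FPKM in control libraries. The part of these marker shifts in the changes of Cyp2 genes was not tested.

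Among single-gene subfamilies, Cyp2r1, a vitamin D 25-hydroxylase, was at 4.49, 3.84 and 3.84 FPKM in extract libraries, against 2.71, 2.69 and 2.05 FPKM in control libraries. All extract values were above all controls, and it rose by a log2 fold change of 0.77 ± 0.14 (edgeR adjusted p = 0.00481; chromosome 7, 114549682 to 114562972). Cyp2u1, a fatty acid hydroxylase, was at 1.24, 1.18 and 1.31 FPKM in extract libraries, against 1.999, 1.61 and 2.02 FPKM in control libraries. It fell by 0.53 ± 0.12 on the log2 scale (edgeR adjusted p = 0.0140), a call lost without extract 1 (0.0552) or extract 2 (0.0643). An antisense gene overlaps this span as well. Cyp2g1, best known from the olfactory mucosa, was at 2.69, 2.54 and 2.33 FPKM in extract libraries and 2.27, 2.54 and 2.08 FPKM in control libraries and was not called (edgeR adjusted p = 0.278). Cyp2s1 and Cyp2t4 stayed under 0.2 FPKM in every library. In all, 9 members stayed under a mean of 1 FPKM in both groups.

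Genes that serve these enzymes were read from a list beside the family. Of 4 electron donors, 3 rose. The other, Cyb5a, was the most abundant of the 4, with means of 173 FPKM in extract and 185 FPKM in control. It was not called, at a log2 fold change of -0.04 ± 0.03 (edgeR adjusted p = 0.458). Por, the reductase, was at 115, 121 and 116 FPKM in extract libraries, against 90.03, 85.2 and 82.5 FPKM in control libraries, a log2 fold change of 0.51 ± 0.04 (edgeR adjusted p = 0.000134). Cyb5b, an outer mitochondrial cytochrome b5, was at 59.1, 61.4 and 59.5 FPKM in extract libraries, against 39.9, 38.5 and 38.5 FPKM in control libraries. It rose by 0.68 ± 0.04 on the log2 scale (edgeR adjusted p = 2.01e-05). Cyb5r3, a cytochrome b5 reductase, rose by 0.23 on the log2 scale, a call lost in 11 of 17 alternatives. Of 4 heme genes, the synthesis enzymes Alas1, Urod and Fech rose, by 0.46, 0.19 and 0.34, and Hmox1, which degrades heme, fell by 0.66 on the log2 scale. The Urod call was lost in 8 of 17 alternatives.

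Of 9 receptors and transcription factors, 4 rose, 1 fell and 4 were not called. Nr1i3, which encodes the drug receptor CAR, was at 76.4, 80.4 and 75.4 FPKM in extract libraries and 76.5, 81.3 and 83.0 FPKM in control libraries and was not called (edgeR adjusted p = 0.909). Nr1i2, which encodes the receptor PXR, was at 34.7, 35.7 and 34.4 FPKM in extract libraries, against 40.3, 43.6 and 43.5 FPKM in control libraries. It fell by 0.22 on the log2 scale (edgeR adjusted p = 0.00856), a call lost without extract 1 (0.0572). Hnf4a was at 123, 124 and 126 FPKM in extract libraries, against 111, 108 and 113 FPKM in control libraries, a log2 fold change of 0.22 ± 0.04 (edgeR adjusted p = 0.00538). Rxra, Ahr and Ppara rose by 0.34, 1.02 and 1.12 on the log2 scale.

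Both epoxide hydrolases, which open the epoxides that P450 enzymes form, were called higher. Ephx1 was at 129, 128 and 131 FPKM in extract libraries, against 64.6, 56.6 and 54.4 FPKM in control libraries, and rose by a log2 fold change of 1.20 ± 0.07 (edgeR adjusted p = 1.94e-05). Ephx2 rose by 0.14 on the log2 scale, a call lost in 12 of 17 alternatives. Of 5 genes of growth hormone signalling, which sets the sex bias of many Cyp2 genes, 2 rose, 1 fell and 2 were not called. Onecut1, which encodes the factor HNF6, was at 10.01, 11.03 and 6.12 FPKM in extract libraries, against 1.37, 0.721 and 1.36 FPKM in control libraries. The extract libraries were uneven but all far above the controls, and it rose by a log2 fold change of 3.03 ± 0.29 (edgeR adjusted p = 0.000260). Bcl6, a repressor higher in male liver, was at 2.17, 2.57 and 2.57 FPKM in extract libraries, against 7.62, 6.80 and 6.46 FPKM in control libraries, and fell by 1.45 ± 0.09 on the log2 scale (edgeR adjusted p = 3.63e-05). Stat5a rose by 0.53 on the log2 scale, a call lost without extract 1 (0.0681) or extract 2 (0.0666) and with limma without a filter (0.116).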

How the data were processed

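Messenger RNA of 6 mouse liver samples was captured with oligo(dT), per the labels' protocols. The tools listed, without roles, in the submitters' processing notes are edgeR, StringTie 1.3.4d, HISAT2 2.0.4 and cutadapt 1.9. The sources used here give neither strandedness nor genome build. The authors deposited FPKM per gene, and estimated counts per gene that are whole numbers, per the file headers. Low counts peak at 4 (6292 entries, against 5334 at 1), so a few counts need not be separate reads. Another 6 columns of per-sample values match no sample and were not used.

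Libraries were tied to groups by the code and number shared by column and title. Counts were tested, extract over control and two-sided, with edgeR 4.0.16 in R 4.3.3 (filterByExpr, TMM factors, quasi-likelihood test, Benjamini-Hochberg adjustment over 18071 genes, threshold 0.05). Standard errors were derived from each fold change and its quasi-likelihood F value. The edgeR steps were run on simulated counts with planted changes larger than most of those called here, so that run does not cover the smaller changes. Alternatives were other scaling factors and filters, DESeq2 1.42.0, limma 3.58.1 on log2(FPKM + 0.1), log2(FPKM + 0.5) and log2(FPKM + 1), counts divided by 4, the replicate number as a block, and each library left out in turn. The members and gene lists were chosen with earlier results of these data known. Values by library are given for the highest member of each subfamily, for every member past the threshold at 1 FPKM or more, and for 10 fixed members. Cyp2c68 and others outside that rule were named after their values were seen. Of the 40 members, 36 have the same span in GENCODE M21 (GRCm38). Coding identity and shared windows came from GENCODE M21 transcripts, in the sense direction, and promoter sequences from RefSeq (GRCm38.p6), which matched 33 members by symbol. The 6 libraries are the only replication, and the labels do not say that each is a separate animal, so the spread behind each p-value is that among libraries and could be technical.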

Additional observations from a re-analysis of the deposited data

How the results depend on the processing

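Of the 22 called members, 10 were called in all 17 alternatives: Cyp2c23, Cyp2c29, Cyp2c38, Cyp2c39, Cyp2c40, Cyp2c67, Cyp2c69, Cyp2d26, Cyp2j6 and Cyp2r1. The 12 higher calls became 4 with limma on log2(FPKM + 0.5) without a filter, where calls over all genes fell to 1485 higher, against 2561 with edgeR; the cause was not tested. The share of higher calls among all calls was 40.1% with limma on filtered FPKM and 52.6% with edgeR. With each library left out in turn, 9 to 13 members were higher and 7 to 12 lower, and 1776 to 2553 of all genes were higher and 1442 to 2153 lower, with 2309 in the full fit. Lower calls over all genes were 1480 without extract 1, 1461 without extract 2 and 1442 without control 2. Cyp2c55 ran from -0.14 without extract 1 to 1.001 without control 3. Nr1i3 turned negative, with -0.034 under upper-quartile factors, -0.005 at 50 counts in 3 libraries, and -0.052, -0.052, -0.051 and -0.052 with limma. With a library left out it ran from -0.023 without control 1 to 0.043 without control 3, and was -0.007 without extract 2. Without their highest member the log2 ratios of summed FPKM were 0.03 for Cyp2c (0.16 with it), -0.35 for Cyp2d (-0.19 with it) and -0.42 for Cyp2j (0.02 with it). With the replicate number as a block, 10 members were higher and 10 lower, and 2044 and 1702 of all genes. Same-numbered libraries correlated at -0.117, -0.0282 and -0.0895 in their deviations from the group mean. With 3 libraries per group, these values cannot show whether the numbers pair the libraries. Cyp2c66 and Cyp2t4 had too few counts to be tested.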
